A study of Mus musculus with 15 samples.

Results

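N6-methyladenosine (m6A) peaks annotated to 3' untranslated regions (3'UTRs) were taken from 3 deposited peak lists of the mouse podocyte line MPC5. The members are all rows carrying the authors' 3'UTR annotation. They number 11827 of 22498 peaks in the control list, 12604 of 24626 in the list labelled sh-METTL3 and 13777 of 27480 in the list labelled sh-METTL3 with glucose, which is 38208 of 74604 peaks in all. Podocytes are the epithelial cells that wrap the capillaries of the kidney filter, and MPC5 is an immortalised line of them. The control cells (genotype WT) grew in ordinary medium. The second group (genotype METTL3 knockdown) received a virus carrying sh-METTL3, an shRNA against METTL3, and the third received that virus and then 25 µmol/L glucose, as labelled, for 72 hours. The unit of that dose is uncertain and was not checked. The control cells received no virus, so virus and shRNA cannot be told apart, and glucose was given on top of the virus alone.

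Each condition had 5 samples, of which 2 were input RNA, 2 were immunoprecipitated RNA (IP, pulled down by an m6A antibody) and 1 carried no word on its kind. Peaks came as 1 list per condition and RNA as 1 column per condition, so no value below carries a spread between replicates. RNA totals were 52807701 to 54282720 counts per condition. Mettl3 RNA had levels of 2.34 (control), 2.42 (sh-METTL3) and 2.49 FPKM (glucose), a level per length and library size, so the RNA that the shRNA targets showed no decrease and the conditions are named by their labels. Of 9 podocyte markers in the RNA table, 7 were at 1 FPKM or more in each library, among them the cytoskeletal genes Actn4 and Synpo. Wt1 stayed under 1 in all 3 libraries, and 4 of 6 tubular markers, Lrp2, Aqp1, Cdh16 and Pax8, were at 1 or more in each. The summed tubular markers stood at 59.0, 172 and 87.9 FPKM in the 3 conditions, and their part in the peak values was not tested. Leukocyte markers summed to 5.15, 11 and 10.8 FPKM and mesangial ones to 2.06, 4.90 and 4.52, both higher under the virus, and their part was not tested either. The leukocyte gene Ptprc was at 0 to 0.0037 FPKM, and endothelial markers summed to 0.679 to 1.66.

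The mark is laid on adenosines of messenger RNA by a writer complex around METTL3 and METTL14, mostly within a short consensus that contains GGAC. It is best known from the last exon, around the stop codon and along the 3'UTR. There YTH-domain proteins bind it, and demethylases such as ALKBH5 can remove it. A peak is a stretch where fragments pulled down by the antibody outnumber the input fragments, and its fold enrichment is the authors' ratio of those. A peak does not resolve single adenosines, and its ratio does not give the share of molecules that carry the mark.

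A few 3'UTR peaks contain a miRNA hairpin, which allows their letters to be read from RefSeq (build GRCm38.p6). Of 10 hairpins lying wholly inside a 3'UTR peak spanning up to 2000 bases, 5 did so in all 3 lists. Mir678 lies in a peak of Prmt2, an arginine methyltransferase gene, with fold enrichments of 8.98 in the control, 11.2 in the list labelled sh-METTL3 and 6.78 with glucose. This hairpin holds GGAC, the core of the m6A consensus, at 2 places, each followed by U. Mir3098 lies in a peak of the mitochondrial ribosomal gene Mrpl51, with 5.74 in the control, where its adjusted p was above 0.05, and 14.6 in the list labelled sh-METTL3. It holds GGAC once. The third hairpin with GGAC, Mir5125 in Srrm2, lay in a peak of the glucose list alone (2.90). The stretches from the hairpins found in several lists show the motif inside these peaks, on the transcribed strand, with GGAC in capitals:

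Mir678 5' copy, chr10:76207393-76207409, minus strand: guGGACugugacuugca

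Mir678 3' copy, chr10:76207328-76207352, minus strand: cucggugcaaGGACuggagguggca

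Mir3098, chr6:125195853-125195877, plus strand: ccugccuuuaGGACccuuuccccac

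GGAC was looked for on the transcribed strand, and 246 of all 1005 RefSeq hairpins hold it (24.5%), against 3 of the 10 inside 3'UTR peaks. The other hairpins found in all 3 lists lie in Chpf2, Wasf2, Rab11fip5 and Scd2. The first of these, Mir671 in Chpf2 (chr5:24592114-24592211), sat in peaks of 13.3, 13.4 and 8.45, and the Wasf2 peaks over Mir7017 stood at 3.35, 3.62 and 4.21. In Scd2 and Rab11fip5 the lists also hold a separate narrow peak with exactly the bounds of the hairpin, spanning 61 and 82 bases. Over Mir705 in Rab11fip5 these narrow peaks stood at 5.36, 5.62 and 21.1, while the wider peaks around them stood at 6.28, 4.77 and 4.90. A member of the lists can therefore be nested in another.

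The 3'UTR was the most frequent annotation in every list. It held 52.6% of the control peaks (95% Wilson interval 51.9 to 53.2), 51.2% of the peaks labelled sh-METTL3 (50.6 to 51.8) and 50.1% with glucose (49.5 to 50.7). These intervals treat peaks as independent and cover counting error only. Coding exons held 19.3%, 20.9% and 19.7%, and 5'UTRs 14.7%, 15.3% and 17.4%. The number of 3'UTR peaks was thus highest with glucose, but this order depended on weak peaks. Counting only peaks enriched 4-fold or more whose adjusted p was under 0.001, there were 6174 in the control, 6488 in the list labelled sh-METTL3 and 6111 with glucose, the lowest of the 3.

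The median 3'UTR peak had a fold enrichment of 5.86 in the control, 5.59 in the list labelled sh-METTL3 and 4.92 with glucose. Within each list this lay above the median of coding exons, which was 5.08, 4.68 and 3.77, and below those of noncoding RNA exons (7.65, 7.28 and 6.54) and introns (6.70, 6.24 and 5.28). Peaks of 5'UTRs had medians of 5.74, 5.42 and 5.03. The 3 lists were normalised and called separately by the authors, so levels set across lists carry that limit throughout. Most 3'UTR peaks passed an adjusted p under 0.05 in their list, 88.0% in the control, 87.9% and 85.6%. The median span from first to last base was 480, 508 and 510 bases, and introns inside a peak count as part of its span. Peaks of up to 100 bases had a median fold of 2.07 to 2.27 over the lists, and those of 1000 to 2000 bases 7.54 to 10.5.

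Genes carried few 3'UTR peaks each. Of 8182 genes with a 3'UTR peak in the control, 5595 had 1, 1874 had 2, 499 had 3 and 214 had 4 or more, and the numbers of such genes in the other lists were 8421 and 8899. The median fold was 6.65 for lone peaks and 4.78 in control genes with 4 or more, and 5.30 and 4.40 with glucose. Stard9, a kinesin gene at 0.190 FPKM in the control, held the most, with 16. Elf2, an ETS transcription factor, Erp29, a chaperone of the endoplasmic reticulum, Tnfrsf22 and Ccdc167 held 9 each. In the glucose list Ccdc167 kept 1 and Erp29 had 2.

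The centre of the median 3'UTR peak lay 1452 bases from the annotated 3' end of its gene in the control, 1542 in the list labelled sh-METTL3 and 1511 with glucose. These distances follow the genome and include introns. The end itself was reached by 18.2%, 20.5% and 20.6% of the peaks. Among peaks spanning up to 1000 bases, those that reached the end had a median fold of 5.27, 5.55 and 5.21. Peaks ending within 250 bases of it had the lowest medians, 3.83, 3.22 and 2.82. The medians beyond 2000 bases were 4.70, 4.60 and 4.02, so enrichment was lowest just inside the gene's end in all 3 lists. Host genes of those lowest peaks had median levels of 4.36, 6.07 and 7.19 FPKM, against 2.05, 3.10 and 3.45 beyond 2000 bases.

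Highly expressed genes were marked less often and less strongly. Of coding genes at 1 FPKM or more, 67.8% of 9075 had a 3'UTR peak in the control (66.8 to 68.8), 69.9% of 9696 in the list labelled sh-METTL3 (69.0 to 70.9) and 77.2% of 9893 with glucose (76.3 to 78.0). In the top decile by FPKM the shares were 52.8%, 51.6% and 66.2%, against 71.4%, 71.4% and 74.0% in the lowest decile. The strongest 3'UTR peak of a gene had a median fold of 8.79 in the lowest control decile and 3.05 in the top one. The other lists ran from 8.32 to 3.53 and from 8.05 to 3.12. The share was thus lowest in the most abundant genes of each library. Hosts under 1 FPKM made up 24.5%, 19.1% and 13.8% of the genes with a 3'UTR peak.

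**Figure D1:**
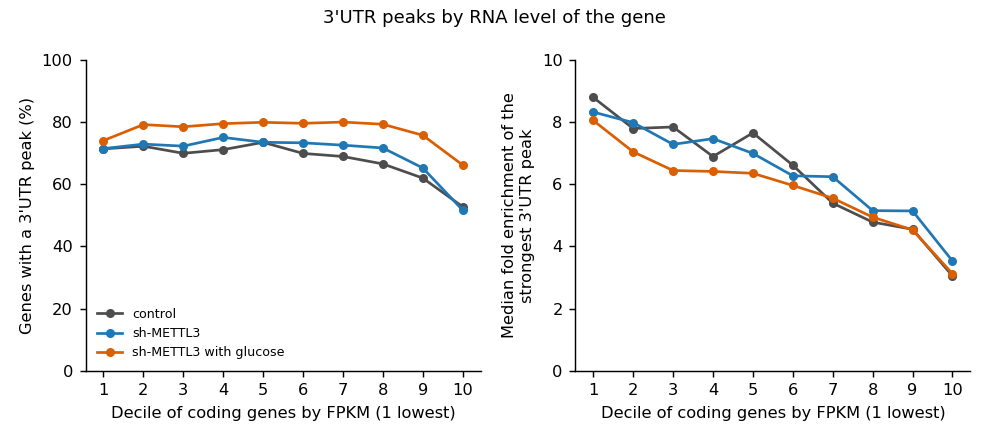
Coding genes at 1 FPKM or more were split into deciles by FPKM in each library (horizontal axis, 1 lowest). The left panel gives the percent of genes with a 3'UTR peak and the right panel the median fold enrichment of the strongest one, with 1 line per list. In the top decile the share is 52.8%, 51.6% and 66.2%, and the median fold is 3.05 to 3.53.

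The strongest 3'UTR peaks of expressed genes (mean of at least 5 FPKM) were largely in the same genes in all lists. The RNA helicase gene Dhx9 had fold enrichments of 552 in the control, 854 in the list labelled sh-METTL3 and 211 with glucose (1825 bases, chromosome 1, 153455788 to 153457612, the same bounds in each list). Fam98b had 446, 278 and 232, and Fbxl19, an F-box gene, had 149, 485 and 213. Isg15, an interferon-induced ubiquitin-like modifier, had 172, 324 and 120. Reads inside single peaks were not analysed here, so the precision of such large folds is unknown. The immediate early gene Jun had 349, 55.5 and 28.3, and Pdia3, a disulfide isomerase, had 47.8, 144 and 257. Both of these folds moved in 1 direction across the conditions in the order of the labels. The authors' deposited log2 changes for glucose against control were far smaller, -0.65 for Jun (adjusted p = 2.5e-60) and 0.38 for Pdia3 (adjusted p = 2.5e-28). For sh-METTL3 against control Isg15 was called as lower by 0.22 (adjusted p = 0.00041, authors' deposited table), although its fold was higher. Such folds therefore do not measure the size of a change.

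Most 3'UTR peaks were shared. Of the control peaks, 77.7% (77 to 78.5) shared 1 bp or more of the same strand with a 3'UTR peak of both other lists. Pairwise, 85.3% of control peaks had a 3'UTR match in the list labelled sh-METTL3 and 85.0% with glucose. In the other direction 80.7% of the peaks labelled sh-METTL3 and 72.7% of the glucose peaks matched the control. Coding exon peaks matched less often, 72.5% and 68.3% of the control ones, and 5'UTR peaks 75.7% and 78.7%. Joining overlapping peaks gave 15379 regions, of which 8396 (54.6%) were in all 3 lists, 2502 in the glucose list alone, 1083 in the list labelled sh-METTL3 alone and 875 in the control alone.

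Peaks of a single list were narrow and weak. With no overlap of any class in the other lists there were 794 3'UTR peaks in the control, 934 in the list labelled sh-METTL3 and 2361 with glucose. Their median folds were 4.31, 3.93 and 2.41 and their median spans 151, 181 and 181 bases, against 598 to 689 bases for the members of regions found in all 3 lists. An adjusted p under 0.05 in their own list was reached by 41.4%, 38.9% and 62.1%. The control and sh-METTL3 singletons sat in genes at a median of 1.57 and 1.65 FPKM, and the glucose ones in genes at 4.68. Under the stricter threshold the singletons were 7.66%, 7.04% and 11.7% of the 3'UTR peaks, where a peak under the threshold in another list no longer counts as a match.

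Among expressed genes, the strongest control singletons were in Opa3, a mitochondrial gene (21.0), Idi1, an isomerase of isoprenoid synthesis (17.2), Erp29 (14.4), and Septin8 and Cptp at 12.4 each. In the list labelled sh-METTL3 they were in the splicing factor gene Prpf4 (39.5), the adaptor gene Crk (13.5), Pcnp (11.4), Ccdc71 (10.4) and Septin8 (6.24). With glucose they were in Mapk1ip1l (27.2), the ion transporter gene Slc12a7 (14.1), the histone demethylase gene Kdm2a (13.1), Iah1 (12.1) and the lysosomal gene Manba (11.1). Absence from the other lists is not a called change. In the authors' deposited tables the Cptp singleton had an adjusted p of 0.18 for sh-METTL3 against control. No 3'UTR peak of Prpf4 fell under 0.05 there (adjusted p = 0.20 and 0.063). The singletons of Crk and Ccdc71 were not among the listed 3'UTR peaks, and the other singletons were not checked. Several genes with singletons held further 3'UTR peaks that were shared. Crk, for example, had peaks of 12.9 and 11.7 in the control and 21.5 and 10.5 with glucose beside its singleton.

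In regions with exactly 1 peak in each list, fold enrichments lay closer together under the virus and closest with glucose. Over 6777 such 3'UTR regions the 10th, 50th and 90th percentiles of fold enrichment were 2.16, 6.22 and 17.2 in the control. In the list labelled sh-METTL3 they were 2.30, 6.04 and 14.7, and with glucose 2.50, 5.96 and 13.4. The 90th was thus 7.96, 6.39 and 5.37 times the 10th, while the median moved little. Matched coding exon peaks (1650 regions) had ratios of 7.52, 5.62 and 5.09, and matched 5'UTR peaks (1653 regions) had 9.19, 7.88 and 7.15. The medians of the 5'UTR regions climbed, from 5.74 through 6.24 to 6.79. With spans of up to 1000 bases alone, the log2 of the 3'UTR ratio was 2.73, 2.52 and 2.37 in place of 2.99, 2.68 and 2.42.

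**Figure D2:**
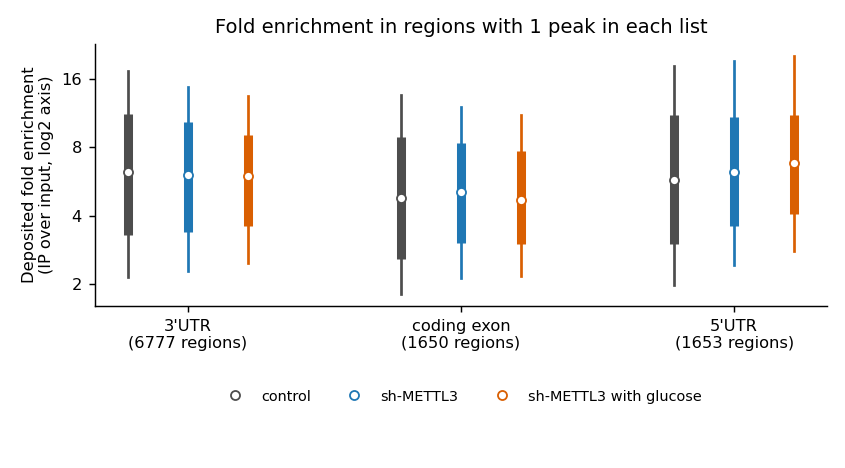
Fold enrichment (vertical log2 axis, IP over input) in regions with 1 peak in each list, by annotation class and list. Points are medians, thick bars run from the 25th to the 75th percentile and thin bars from the 10th to the 90th; the 3'UTR range narrows from 2.16 to 17.2 in the control to 2.50 to 13.4 with glucose.

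To see which peaks were higher or lower without choosing them by a compared list, the 3'UTR regions were sorted into quintiles by the list outside the comparison. From glucose to control the median log2 ratio of fold enrichments was 0.21 in the quintile with the lowest folds in the list labelled sh-METTL3 and -0.44 in the highest. From sh-METTL3 to control it ran from 0.03 to -0.15 by quintile of the glucose list. From glucose to sh-METTL3 it ran from 0.17 to -0.26 by quintile of the control list. In 5'UTRs the ratio of glucose to control ran from 0.53 to 0.00. Coding exons followed the same course as 3'UTRs, from 0.32 to -0.35 for glucose to control and from 0.12 to -0.20 for glucose to sh-METTL3. In 5'UTRs the top quintile of glucose to sh-METTL3 stood at -0.14, so lower values of the most enriched peaks with glucose were not particular to 3'UTRs.

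The authors also compared peaks between conditions and deposited tables that list peaks with a p under 0.05. Their log2 fold changes are given here as condition with virus or glucose over the other, and a peak is called at an adjusted p under 0.05. Of all classes, 57.0% of the 3518 peaks listed for sh-METTL3 against control were called in the authors' deposited table, 43.4% as higher and 13.6% as lower. For 3'UTR peaks it was 1103 of 1963 (56.2%), of which 795 rose and 308 fell. Peaks rose in 72.1% of these 3'UTR calls (69.4 to 74.6), against 81.0% (78.3 to 83.4) of the calls in other classes of the authors' deposited table.

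With glucose against control, 79.4% of 8208 listed peaks of all classes were called in the authors' deposited table, 44.1% as higher and 35.3% as lower. The 3'UTR calls split evenly, with 1887 rising and 1918 falling of 3805, or 49.6% rising (48.0 to 51.2). In 5'UTRs 72.4% of the calls rose (69.5 to 75.1) and in coding exons 58.0% (55.4 to 60.6). Against sh-METTL3, glucose gave calls for 67.1% of 4968 listed peaks of all classes, rising in 30.6% and falling in 36.5% by the authors' deposited table. Of 2098 called 3'UTR peaks, 841 rose and 1257 fell, or 40.1% rising (38.0 to 42.2), close to the 40.7% of 565 calls in coding exons (36.7 to 44.8) and below the 69.7% in 5'UTRs (65.4 to 73.7). These comparisons share conditions with each other, so each is given on its own. Among 3'UTR calls with an absolute log2 fold change of at least 1, rises made up 69.0% of 100, 62.1% of 832 and 52.2% of 362. The last share is 189 rises against 173 falls. Over all classes the larger changes rose in 178 of 254, 1161 of 1706 and 412 of 701 calls, so the 3'UTR shares were near or below those.

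The direction of a called 3'UTR peak went with its strength in the list outside the comparison. In glucose against control, 94.1% (90.6 to 96.3) of 269 called peaks with a fold of up to 2 in the list labelled sh-METTL3 were higher in the authors' deposited table. The share was 84.8% of 784 peaks at 2 to 4, 54.2% of 861 at 4 to 8, 12.7% of 1233 at 8 to 16 and 14.6% of 314 above 16. In glucose against sh-METTL3, sorted by the control list, it ran from 87.9% of 140 to 6.90% of 290 in the authors' deposited table. In sh-METTL3 against control, sorted by the glucose list, it ran from 80.9% of 89 through 87.3% of 338 to 48.4% of 64. Direction also went with the RNA level of the host. Rises made up 31.2% of 1203 glucose-against-control calls in genes at 1 to 5 FPKM in the library labelled sh-METTL3, and 79.4% of 97 in genes above 100. Strength and RNA level move together, and their separate parts were not tested.

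**Figure D3:**
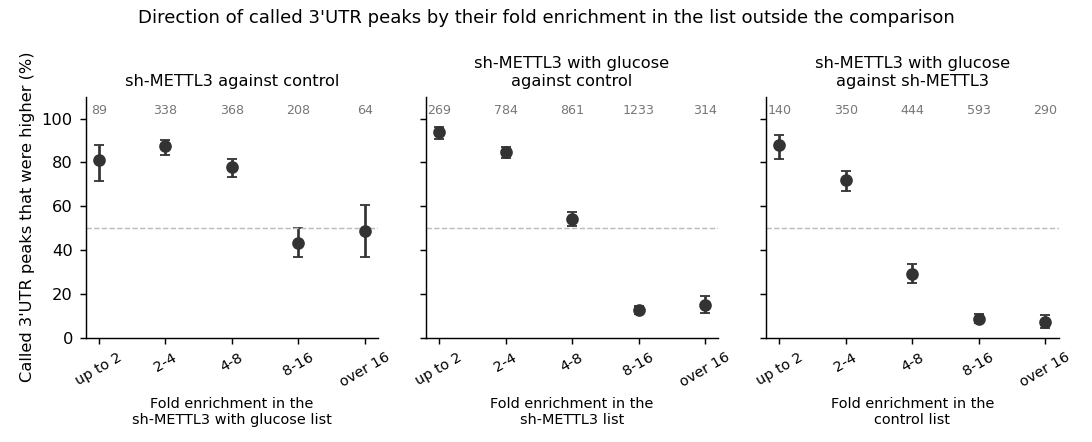
Percent of called 3'UTR peaks that were higher (vertical axis, 95% Wilson intervals) by fold enrichment in the list outside the comparison (horizontal axis), 1 panel per authors' comparison, with the number of calls at the top. The share falls from 94.1% to 14.6% for glucose against control, from 87.9% to 6.90% for glucose against sh-METTL3 and from 80.9% to 48.4% for sh-METTL3 against control.

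Within a gene, 3'UTR calls mostly shared their direction with calls in coding exons and in 5'UTRs. In glucose against control, 331 genes had called peaks in both UTRs in the authors' deposited table, of which 170 rose in both by their median, 54 fell in both, 82 fell in the 3'UTR and rose in the 5'UTR, and 25 did the reverse. In glucose against sh-METTL3 the same counts over 123 genes of the authors' deposited table were 50, 39, 27 and 7. Against coding exon calls, 183 of 408 genes rose in both and 127 fell in both in glucose against control, and 23 of 126 rose and 71 fell in both in glucose against sh-METTL3. For sh-METTL3 against control, 26 of 35 genes rose and 3 fell in both UTRs, and 51 of 66 rose and 5 fell in the 3'UTR and coding exons. Most calls of that comparison rose in each class, 72.1% in 3'UTRs, 80.6% in 5'UTRs and 82.9% in coding exons. Many genes would thus rise in both classes without any link within the gene. The agreement that such shares alone would give was not computed for any comparison. In glucose against control, 99 of 400 genes with several called 3'UTR peaks (24.8%) had peaks going both ways. The YTH reader gene Ythdf1 was one, at 1.10 (adjusted p = 0.013) and -0.27 (adjusted p = 0.00021) for glucose against control in the authors' deposited table. Its fold enrichments were 2.18 and 6.38 in the control, 2.54 and 7.11 in the list labelled sh-METTL3, and 5.03 and 4.55 with glucose.

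The peaks with the largest changes were often missing from 1 list. For sh-METTL3 against control, Zxdb, a zinc finger gene on the X chromosome, had no control 3'UTR peak and fold enrichments of 876 and 15.6 in the other lists. It rose by 8.05 on the log2 scale (adjusted p = 1.0e-179) in the authors' deposited table. Ube2s, a ubiquitin-conjugating enzyme of mitosis, had folds of 70.8, 88.1 and 147 and rose by 2.27 (adjusted p = 2.5e-77) in the authors' deposited table. Cd59a, a complement inhibitor (2.12), Herc3 (1.88) and the proton pump subunit Atp6v0c (1.73) were the next highest there. Ribosomal protein genes aside, the lowest called values of that authors' deposited table were those of Idi1 (-2.07), the phosphatase gene Ptprj (-2.06), Zfp991 (-1.75), Gps1 (-1.58) and Bzw1 (-1.46). Of the ribosomal protein genes, Rps12 fell by 5.45 (adjusted p = 2.7e-09) and Rpl15 fell by 2.37 (adjusted p = 7.9e-61) there.

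In glucose against control the ribosomal protein gene Rpl30 rose by 5.74 (adjusted p = 2.5e-65) in the authors' deposited table. Ribosomal protein genes aside, the highest called values there after Zxdb (4.66) were those of the pseudouridine synthase gene Trub1 (3.89), Ap2m1, a subunit of the clathrin adaptor (3.3), Zfp652 (3.20) and the deubiquitinase gene Usp7 (3.09). Ap2m1 and Usp7 had 3'UTR peaks in the glucose list alone, at up to 2.83 and 3.58. The lowest were Tom1, an endosomal sorting gene (-5.01), Eme2, a DNA repair gene (-4.95), Gps1, a subunit of the COP9 signalosome (-4.75), S1pr1 (-3.35) and Tbl3 (-3.06), again from the authors' deposited table. Hosts under 1 FPKM, ribosomal protein genes, pseudogenes, predicted genes and genes that have near-identical copies are left out of these rankings. Tom1 had folds of 23.2 and 10.1 in the control and sh-METTL3 lists at the very end of the gene and no 3'UTR peak with glucose, at 3.59, 10.5 and 8.74 FPKM. Gps1 had 2 peaks in the control (14.4 and 8.46), 1 in the list labelled sh-METTL3 (7.41) and none with glucose, at 35.1, 26.4 and 30.0 FPKM.

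In glucose against sh-METTL3 the highest were Trub1 (3.63), Zfp652 (3.07), Dhrs11 (2.99), the homeobox gene Otx1 (2.49) and Ncoa4 (2.44) in the authors' deposited table. Ncoa4 is the receptor for ferritin breakdown, and its strongest 3'UTR fold was 5.01, 9.71 and 15.7 in the 3 lists. The lowest values of the authors' deposited table were Tom1 (-4.41), the mitochondrial import gene Timm23 (-2.15), Ap5s1 (-1.81), Oser1 (-1.79) and Gps1 (-1.70). Oser1 had folds of 19.7, 10.6 and 2.94, a step down in each list, at 15.3, 9.10 and 11.5 FPKM.

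The 4 genes of the series title differed. S1pr1, a receptor for sphingosine 1-phosphate (chromosome 3, minus strand), had 1 peak in each list. Its fold enrichment was 24.9 in the control (115711567 to 115712314), 7.28 in the list labelled sh-METTL3 and 3.55 with glucose. The log2 fold change was -1.89 (adjusted p = 0.12) for sh-METTL3 and -3.35 (adjusted p = 0.015) for glucose against control in the authors' deposited tables, so only the fall with glucose passed. S1pr1 RNA stood at 1.78, 0.335 and 1.02 FPKM, from 451, 86 and 254 counts, and the part of this low level in the folds was not tested.

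Smad3, a transcription factor activated by TGF-beta receptors, had 2 3'UTR peaks on chromosome 9 in each list. The one at the gene's end (63646767 to 63648115 in all 3) had 10.9, 7.47 and 7.87. The one further inside had 12.1, 8.72 and 6.65. In the authors' deposited tables the inner peak fell in all 3 comparisons, by 0.14 for sh-METTL3 (adjusted p = 0.032), fell by 0.56 for glucose against control (adjusted p = 3.3e-09) and fell by 0.42 for glucose against sh-METTL3 (adjusted p = 4.2e-05). Smad3 RNA stood at 5.14 FPKM in the control, 24.2 under the virus and 19.3 with glucose, so it was higher than the control in both other libraries and lower with glucose than under the virus alone. Smad2, its partner, had 7.54, 4.90 and 6.81, and no change passed (adjusted p = 0.11 and 0.098 in the authors' deposited tables). Mettl3 had a 3'UTR peak in the glucose list alone, 210 bases near the gene's end (chromosome 14, 52294871 to 52295080) with a fold of 2.71. It rose by 1.76 against control (adjusted p = 0.00012) and 1.20 against sh-METTL3 (adjusted p = 0.0081) in the authors' deposited tables.

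**Figure D4:**
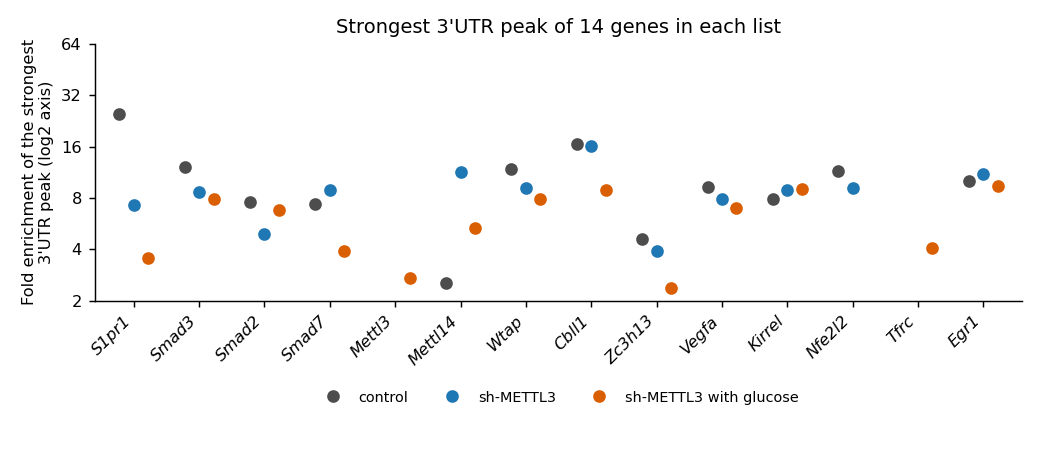
Fold enrichment (vertical log2 axis) of the strongest 3'UTR peak of 14 genes in each of the 3 lists. A missing point means no 3'UTR peak in that list; S1pr1 steps from 24.9 through 7.28 to 3.55, and Mettl3 and Tfrc have a point in the glucose list alone. These genes were picked after their values were seen.

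Of the m6A machinery, 8 of 9 writer genes at a mean of 1 FPKM or more had a 3'UTR peak in the control, 8 in the list labelled sh-METTL3 and 9 with glucose. Over all 11591 genes at that level the shares were 58.2%, 58.8% and 65.0%. Calls were 0 for sh-METTL3 against control, 2 higher and 4 lower for glucose against control, and 2 higher and 3 lower for glucose against sh-METTL3 in the authors' deposited tables. Besides Mettl3, Mettl14 rose with glucose, by 0.84 (adjusted p = 2.0e-05) against control in the authors' deposited table. The adaptor gene Cbll1, with folds of 16.6, 16.2 and 8.94, fell by 0.68 and Zc3h13, with 4.59, 3.89 and 2.36, fell by 0.89 there (adjusted p = 8.5e-06 and 0.00083, authors' deposited table). Wtap, which holds the complex in nuclear speckles, had 11.8, 9.13 and 7.90. Readers and erasers had 3 higher and 0 lower calls for sh-METTL3 and 6 and 2 for glucose against control. The demethylase gene Alkbh5 had no control peak and 2 weak ones in each other list (1.44 to 2.24). One rose by 0.64 for sh-METTL3 (adjusted p = 0.0093) and the other by 0.87 for glucose against control (adjusted p = 0.0019) in the authors' deposited tables.

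Gene lists differed in the direction of their calls, most clearly in glucose against control. As background for all lists, that comparison had 1887 higher and 1918 lower calls over all 3'UTR peaks. By strength in the list labelled sh-METTL3, 94.1% of called peaks rose at a fold of up to 2 and 12.7% at 8 to 16. Gene lists were not compared with peaks of equal strength, so whether their directions go beyond this was not tested. A 3'UTR peak was held by 58.2%, 58.8% and 65.0% of all expressed genes in the 3 lists. Zfp zinc finger genes, mostly KRAB-type repressors of low abundance, had a 3'UTR peak in 165, 159 and 168 of 201 expressed members. Their strongest peaks had medians of 12.3, 10.4 and 8.05, against 6.70, 6.38 and 5.70 over all genes. For glucose against control 14 of their peaks rose and 103 fell, with a median of -0.84 against -0.16 over all called 3'UTR peaks of the authors' deposited table. Against sh-METTL3 it was 5 and 43, and for sh-METTL3 against control 12 and 18. Zfp57, which guards imprinted methylation, had folds of 58.4, 21.6 and 18.9 and fell by 0.79 (adjusted p = 2.9e-06, glucose against control, authors' deposited table). Zfp970 had 53.1, 16 and 6.04, while Zfp652 and Zfp395 had called rises.

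Immediate early genes, whose short-lived messages appear first after a stimulus, had 3'UTR peaks in all 27 members in the first 2 lists and in 26 with glucose. Calls in the authors' deposited tables were 5 higher and 5 lower for sh-METTL3, 3 and 21 for glucose against control, and 1 and 13 for glucose against sh-METTL3. Jun fell by 0.65 (adjusted p = 2.5e-60) against control, Fosl1 fell by 1.20 (adjusted p = 2.1e-05) and Egr2 fell by 1.60 (adjusted p = 0.0014) in the authors' deposited table. Egr2 RNA was at 0.174 and 0.353 FPKM (50 and 98 counts) in the control and glucose libraries and Fosl1 at 0.127 FPKM (22 counts) in the control, so these folds rest on little RNA, while Jun was at 72.2 and 32.6 FPKM. Egr1 had folds of 10.1, 11 and 9.38 in its stronger peak, which with glucose was 1 peak over both of its control peaks. In glucose against control the stronger peak fell by 0.12 (adjusted p = 1.9e-05, authors' deposited table). The peak nearer the gene's end rose by 0.55 there (adjusted p = 2.9e-06) and by 0.78 against sh-METTL3 (adjusted p = 1.0e-08). Maff and Klf6 had the other called rises against control.

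Genes of TGF-beta signalling had 3'UTR peaks in 19 of 23 members in each list (82.6%), against 58.2%, 58.8% and 65.0% of all expressed genes. They had 2 higher and 10 lower calls for glucose against control in the authors' deposited table. The inhibitory Smad7 had 7.37, 8.87 and 3.91 and fell by 1.0 (adjusted p = 5.8e-10), and Id3 had 4.71, 2.77 and 2.43 and fell by 0.92 (adjusted p = 4.0e-18) in the authors' deposited table. The receptor gene Tgfbr2 had 7.84, 9.24 and 3.71. Smurf2, a ubiquitin ligase of the pathway, rose by 1.29 (adjusted p = 9.8e-08) in the authors' deposited table. The unfolded protein response had 3 higher and 9 lower calls there. Its chaperone Hspa5 had 12.7, 8.45 and 7.39, at 780, 119 and 186 FPKM. The interferon-stimulated genes had 3 higher and 10 lower calls against control, but 2 and 2 for glucose against sh-METTL3. Against control they include Isg15 at -0.87 (adjusted p = 6.3e-56) and Ifit3 at -0.90 (adjusted p = 7.9e-93) in the authors' deposited table. Both of these peaks run from the first to the last base of their gene, so they are not confined to the 3'UTR of their annotation. Other named peaks are wide as well. In glucose against control the called Smad7 peak spans 19355 bases and that of Crk 25136, introns included. The sphingosine 1-phosphate list had 1 higher and 4 lower, S1pr1 among the latter, too few calls to set the list apart.

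**Figure D5:**
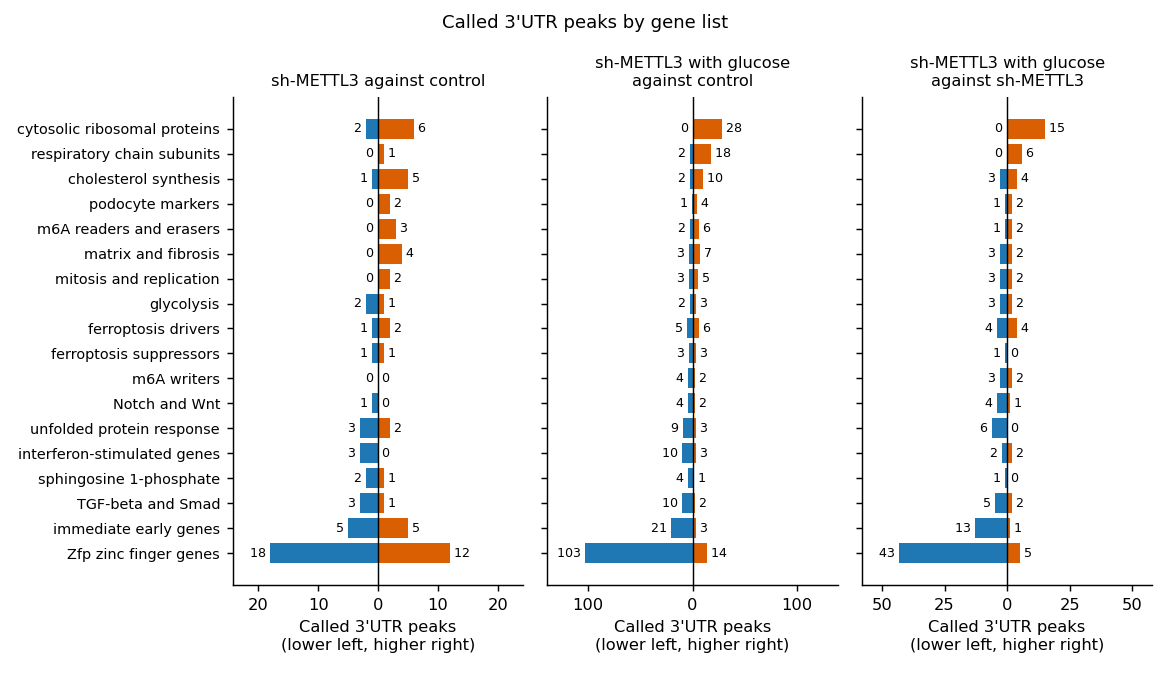
Number of called 3'UTR peaks (horizontal axis, lower to the left and higher to the right) for each gene list with at least 5 expressed members, 1 panel per authors' comparison, sorted by the share that rose in glucose against control. Cytosolic ribosomal proteins have 28 higher and 0 lower calls there and Zfp genes 14 and 103; the panels have different scales.

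Ribosomal and respiratory genes, both weakly marked and abundant, had mostly rises with glucose. Cytosolic ribosomal protein genes, at a summed mean of 17494 FPKM, had a 3'UTR peak in 24, 21 and 39 of 80 members. Their strongest peaks had medians of 2.66, 2.58 and 2.39. In the authors' deposited tables they had 6 higher and 2 lower calls for sh-METTL3, 28 and 0 for glucose against control and 15 and 0 for glucose against sh-METTL3. Rpl19 had folds of 1.22, 1.69 and 1.87 and rose by 0.96 (adjusted p = 1.0e-189, glucose against control, authors' deposited table). These genes have many processed copies, so reads could be split or shared between loci, and their values are uncertain. Respiratory chain subunits had 3'UTR peaks in 35, 28 and 48 of 72 members and 18 higher and 2 lower calls for glucose against control. Ndufs5 rose by 0.78 (adjusted p = 7.9e-20) in the authors' deposited table, with a peak of 3.03 in the glucose list alone. Summed levels of both lists were lower in the library labelled sh-METTL3 than in the control, at 11626 against 26404 and 2566 against 3587 FPKM.

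Cholesterol synthesis genes had 10 higher and 2 lower calls for glucose against control in the authors' deposited table. Hmgcs1 rose by 1.69 (adjusted p = 9.1e-07) there, with a peak in the glucose list alone (2.07), and Insig1, which holds back the pathway, by 1.57 (adjusted p = 4.0e-88). Podocyte genes had 4 higher calls and 1 lower, too few to set them apart. Actn4, which crosslinks actin, had 3.39, 3.18 and 4.71 and rose by 0.68 (adjusted p = 2.5e-11), and the growth factor gene Vegfa had 9.23, 7.87 and 6.99 and fell by 0.34 (adjusted p = 0.00098, authors' deposited table).

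Ferroptosis is a form of cell death driven by iron and oxidised lipids, and the title of the series mentions it. Its suppressor genes had 3 higher and 3 lower calls for glucose against control and its drivers 6 and 5 in the authors' deposited table. The transferrin receptor gene Tfrc, which brings iron into the cell, had 3'UTR peaks in the glucose list alone (4.05 and 2.18) and rose by 2.13 (adjusted p = 7.9e-11) in the authors' deposited table. Ncoa4 rose there as well, by 1.51 (adjusted p = 4.9e-09) in the peak shared by the 3 lists. Nfe2l2, the master regulator of antioxidant genes, had 11.5 and 9.17 and no 3'UTR peak with glucose. Its called change was a fall of only 0.34 (adjusted p = 0.00076, authors' deposited table). Of the control 3'UTR peaks, 176 met only a peak of another class in the glucose list, and whether that of Nfe2l2 is among them was not checked. Bach1, which represses such genes, and Keap1, which keeps Nfe2l2 low, fell by 0.75 (adjusted p = 0.00019) and fell by 0.51 (adjusted p = 0.00014) in the authors' deposited table. Matrix genes had 7 higher and 3 lower calls, glycolysis 3 and 2, mitosis and replication 5 and 3, and Notch and Wnt 2 and 4. Over all 3'UTR peaks the split was 1887 and 1918, so the small splits of the ferroptosis, glycolysis and Notch and Wnt lists do not set them apart.

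RNA of the host genes was compared as log2 of the ratio of FPKM + 1, over 11591 genes with a mean of at least 1. In glucose against control the median was 0.16 over all genes, 0.49 over 1595 genes with lower 3'UTR peaks alone and 0.08 over 1525 with higher ones alone. At least 2-fold more RNA was found for 8.25% of all genes, for 18% of the genes with lower peaks and for 4.66% of those with higher ones. At least 2-fold less was found for 3.68% of all genes, 1.57% and 2.56%. Genes with a 3'UTR peak in both lists are a nearer background for called genes. Their median was 0.29, with 10.9% at least 2-fold higher and 1.56% lower. In sh-METTL3 against control the medians were 0.10 over all genes, 0.30 over 274 genes with lower peaks and 0.24 over 720 with higher ones. There 11.4% of all genes were at least 2-fold higher and 8.01% lower. Genes with a 3'UTR peak in both lists had 0.27, so both called groups lay near that background. In glucose against sh-METTL3 the medians were 0.06 over all genes, 0.10 with lower peaks and 0.01 with higher ones, with 2.81% and 1.85% of all genes past 2-fold. Genes with a 3'UTR peak in both of these lists had 0.06. Both kinds of called genes need reads in both libraries, and the enrichment is a ratio over input RNA of the same condition. The RNA columns match the samples of no stated kind, so how far the 2 measures depend on each other is unknown.

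RNA was also compared between genes marked in 1 list of a pair and in both. With a 3'UTR peak in the glucose but not the control list, 1076 genes had a median of 0.08, and 287 with the reverse had 0.33. Genes marked in both had 0.29 and genes marked in neither -0.13. In sh-METTL3 against control the medians were 0.07 for 542 genes marked under the virus alone, 0.14 for 478 marked in the control alone, 0.27 for those marked in both and -0.16 for those in neither. For glucose against sh-METTL3 all 4 medians lay between -0.01 and 0.08.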

How the data were processed

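Per the labels' protocols, poly(A) RNA of MPC5 cells was fragmented, pulled down with an m6A antibody and sequenced in pairs as strand-marked libraries; all samples carry the same batch label. Tools listed in the submitters' processing notes are HOMER 4.10, edgeR 4.1, StringTie 2.1.2, HISAT2 2.0.4 and fastp 0.19.4, and the build listed is the human GRCh38. Which program called peaks is not given in the sources. Of 9990 host symbols, 9887 matched RefSeq genes of GRCm38.p6, and all 9887 overlapped the gene of that symbol, with both ends within 1000 bases in 76.0%, so coordinates are given as GRCm38.

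In the deposited peak lists, fold enrichment is the authors' ratio of IP over input, with log10 p and log10 adjusted p as scores. Differential tables were deposited with log2 fold changes and both raw and adjusted p-values by the authors. Of called 3'UTR peaks found in both lists of a pair, 87.7%, 89.8% and 89.5% shared the sign of the ratio of fold enrichments; the glucose against sh-METTL3 table was deposited the other way round and was turned. The deposited RNA table gives counts and FPKM per the file headers. Column names match the libraries of no stated kind. Deposited starts count from 0, so 1 was added.

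Peaks were matched by at least 1 bp on 1 strand. Shares have 95% Wilson intervals. No test was run on peaks or RNA, since each condition had 1 list and 1 RNA column; every p is the authors'. Functions were tested on simulated peaks. Members and gene lists were chosen with earlier results of these data known. Named genes are the 4 of the title, the 5 strongest peaks and singletons per list, the 5 highest and lowest calls per table, the 5 genes with the most control peaks and leading members of each of 22 gene lists. The rankings skip pseudogenes, predicted genes, ribosomal protein genes and genes that have near-identical copies, some of them chosen after their values were seen. Calculations used Python 3.11.15, pandas 2.3.3, NumPy 2.4.6, SciPy 1.17.1 and matplotlib 3.10.9.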

Additional observations from a re-analysis of the deposited data

How the results depend on the processing

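No paired analysis was possible because the files hold 1 list, 1 RNA column or 1 comparison per condition, and for the same reason no replicate could be left out. Of 80 alternative values, 37 stayed within the interval or limit of the reported value and 43 moved. For medians the interval is a 95% binomial one of ranks. The limit is 1.5 times for counts and 0.1 on the log2 scale for the spread of folds. Exonic blocks, exonic widths and the m6A consensus over all peaks were not run, as no genome or block structure was used here.

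Counting only peaks enriched 4-fold or more whose adjusted p was under 0.001, the lists held 6174, 6488 and 6111 3'UTR peaks (control, sh-METTL3, glucose), 58.6%, 57.1% and 57.3% of all. The share of control peaks in all 3 lists was then 73.6%, singletons were 7.66% in the control and 11.7% with glucose, median folds were 9.57, 8.72 and 7.55, distances to the gene's end 1899, 1936 and 1913 bases, and shares of marked genes 43.0%, 46.2% and 46.7%. At an adjusted p under 0.05 the 3'UTR shares were 54.9%, 53.4% and 52.6%. With an overlap of at least 50% of both peaks, 46.6% of control peaks were in all 3 lists and 25.7%, 27.8% and 37.2% were singletons. Genes at 5 FPKM or more were marked in 64.7% of the control and 67.9% of the sh-METTL3 list. Called 3'UTR peaks at an adjusted p under 0.01 numbered 689 for sh-METTL3 against control. With an absolute log2 fold change of at least 1 they numbered 100, 832 and 362, of which 69.0%, 62.1% and 52.2% were higher. As reported, the calls of glucose against control split evenly (49.6% higher), and 40.1% were higher in glucose against sh-METTL3. In the latter the larger changes were 189 rises and 173 falls, close to an even split. With a pseudocount of 0.1 the median RNA ratio in glucose against control was 0.63 for genes with lower peaks and 0.43 for genes marked in the control alone. Without the FPKM filter it was 0.18 for the latter. In sh-METTL3 against control, the median of genes marked under sh-METTL3 alone was then 0.0032, in place of 0.066. In glucose against sh-METTL3, the median of genes marked with glucose alone turned from -0.012 to 0.0071 without that filter. Chosen after seeing the data, spans of up to 1000 bases gave distances of 898, 1003 and 922 bases and log2 spreads of fold of 2.73 in the control and 2.52 in the sh-METTL3 list.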
